A study of Homo sapiens with 6 samples.

Results

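The genes described here are PLAU, PLAT, PLAUR, SERPINE2, ANXA2, S100A10 and LRP1, whose products activate plasminogen at the cell surface, bind it, or inhibit or clear its activators, and 2 intracellular relatives of PAI-1, SERPINB6 and SERPINB8. They were chosen by name, with earlier results of these data known, as 9 of the 58735 genes in the count table. All 9 had enough reads to be tested. RNA came from Panc-1, an established human pancreatic cancer line labelled epithelial and wild type, after 72 h of co-culture. Fibroblasts from the tumour setting (cancer-associated fibroblasts, CAF) were the partner in 3 libraries, whose count columns are headed CAF-NC, with NC not spelled out in the labels. CAF that overexpress PAI-1 were the partner in 3 more. The fibroblasts carry the added PAI-1 and Panc-1 does not, so the comparison asks how the cancer cells respond to a partner that makes more of the inhibitor. The labels give neither the source of the fibroblasts, nor the vector, nor how the cell types were kept or taken apart.

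Urokinase, the product of PLAU, and the tissue-type activator, the product of PLAT, cut the circulating zymogen plasminogen into plasmin, a protease that degrades fibrin and matrix. Urokinase works while bound to its receptor, the product of PLAUR, which sits on the outer membrane through a lipid anchor. PAI-1 is a serpin, a suicide inhibitor that is cut by its target and stays bonded to it, and the complex of receptor, urokinase and PAI-1 is taken into the cell by LRP1. In pancreatic cancer the system is known for its part in invasion.

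Some short elements near the starts of the 3 genes that rose are shown here, so that their sequence can be set beside their expression. Sequences are from RefSeq on GRCh38.p14, which held 13 starts for 8 of the genes, and the 250 bases before each start were searched on both strands. Capitals mark every match to any of 5 motifs, and the name of each line gives the one at its centre. The motifs were AP-1 (TGANTCA), EGR (GCGNGGGCG), SP1 (GGGCGG), ETS (CCGGAA) and the TATA box (TATAAA). Not printed are the SP1 and TATA matches of ANXA2, the TATA matches of SERPINB8 and the other SP1 matches of PLAU. Elements of PLAUR, SERPINB8, PLAU and, for contrast, ANXA2 are given 5′ to 3′ on the strand of the gene.
PLAUR, AP-1, chr19:43670339-43670365, minus strand: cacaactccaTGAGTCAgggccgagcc
PLAUR, EGR, chr19:43670241-43670269, minus strand: gagggggaggCGCCCACGCatctggggct
SERPINB8, AP-1, chr18:63969886-63969912, plus strand: gagtcaaacgTGAATCAacggtgaaaa
SERPINB8, AP-1 with an ETS match after it, chr18:63970043-63970069, plus strand: cgaacggttcTGAGTCAtctgCCGGAA
PLAU, SP1, chr10:73911056-73911081, plus strand: ggagggagccGGGCGGgagagggagG
ANXA2, AP-1, chr15:60398097-60398123, minus strand: cgggccggggTGAGTCAcccctgactt

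An AP-1 match stood in the windows of PLAUR, SERPINB8 and ANXA2, and 6.57% of the 35116 windows in the RefSeq table hold one. The EGR match of PLAUR, read on the opposite strand, lay 90 bases before its start, and 8.41% of windows hold one. Neither PLAU window held an AP-1 or EGR match. The one farther downstream held 3 SP1 matches, a motif present in 42.6% of windows. PLAUR and SERPINB8 have an AP-1 match and rose, while SERPINE2, SERPINB6, S100A10 and LRP1 have none and did not pass the test. ANXA2 has an AP-1 match and did not pass, and PLAU has none and rose. AP-1 matches in these windows thus did not set the genes that rose apart from the others. SP1 matches did not either. PLAUR and SERPINB8 held no SP1 match and rose, while PLAU held SP1 matches and rose. SERPINE2, SERPINB6, ANXA2, S100A10 and LRP1 held an SP1 match and did not pass. A link between any motif and the calls was not tested. Bases farther from the starts were not searched, and whether the genes that rose share an element was not tested. A match in these windows is a description of sequence, and binding was not measured. GENCODE places exons of longer transcripts over all of the PLAUR window and over 62.4% of the SERPINB8 window, so these are not purely upstream bases.

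Library totals ranged from 13628508 to 16006880 counts, and 3 counts correspond to between 0.187 and 0.22 CPM, the usual unit of counts scaled by library size. Levels below are CPM with TMM scaling, which adjusts for differences in composition between libraries. The PAI-1 library of replicate 2 stood apart from its group. Mitochondrial counts made up 3.78% of it, 5.12% of PAI-1 replicate 1, 4.76% of replicate 3 and 5.53% to 5.92% of each CAF library, so this share was lower in every PAI-1 library than in any CAF library. The part of that shift in the results below was not tested. Replicate 2 also lay at -23.9 on the second principal component, where the other PAI-1 libraries lay at 6.31 and 18.9. Calls made with and without it are given where they differ. No library reached 1 CPM for 8 of 10 markers of fibroblasts. The other markers, COL3A1 and COL6A3, averaged 5.22 and 2.42 CPM with CAF and 6.44 and 2.81 CPM with PAI-1. Neither passed the test. DCN had 3 counts over all libraries together, none of them with CAF. PDGFRA, FAP and POSTN had 1, 1 and 3, none of them with PAI-1. LUM, COL1A2, PDGFRB and THY1 had 4, 4, 6 and 36. These 8 markers are too scarce to compare between groups. The list summed to 7.53 to 9.45 CPM with CAF and 9.14 to 10.5 CPM with PAI-1. The 5 epithelial markers summed to 1780 to 1890 CPM with CAF and to 2045 to 2307 CPM with PAI-1, and KRT8, KRT18, KRT19 and KRT7 rose. The part of this shift in the results below was not tested. In bulk RNA, fewer cells of a type and less RNA per cell cannot be told apart.

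Of the 9 genes, 3 rose and none fell with PAI-1-overexpressing fibroblasts: PLAU, its receptor gene PLAUR, and SERPINB8. Here "rose" and "fell" mean an adjusted p under 0.05 in edgeR's quasi-likelihood test, with Benjamini-Hochberg adjustment over all 14960 genes tested. Over those genes 32.2% were called, 17.2% higher and 15% lower, so a count of 3 in 9 is close to the background. All 3 were at least 1.5-fold higher, and 3.88% of all tested genes were called and at least 1.5-fold higher. The 9 genes were chosen with earlier results of these data known, so this comparison is a description and no test. The median log2 fold change of the 9 genes was 0.13, and it was -0.0015 over all genes tested. The groups did not overlap for the same 3 genes, against 43.4% of all genes tested. Without PAI-1 replicate 2 the count was again 3 higher and none lower.

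**Figure D1:**
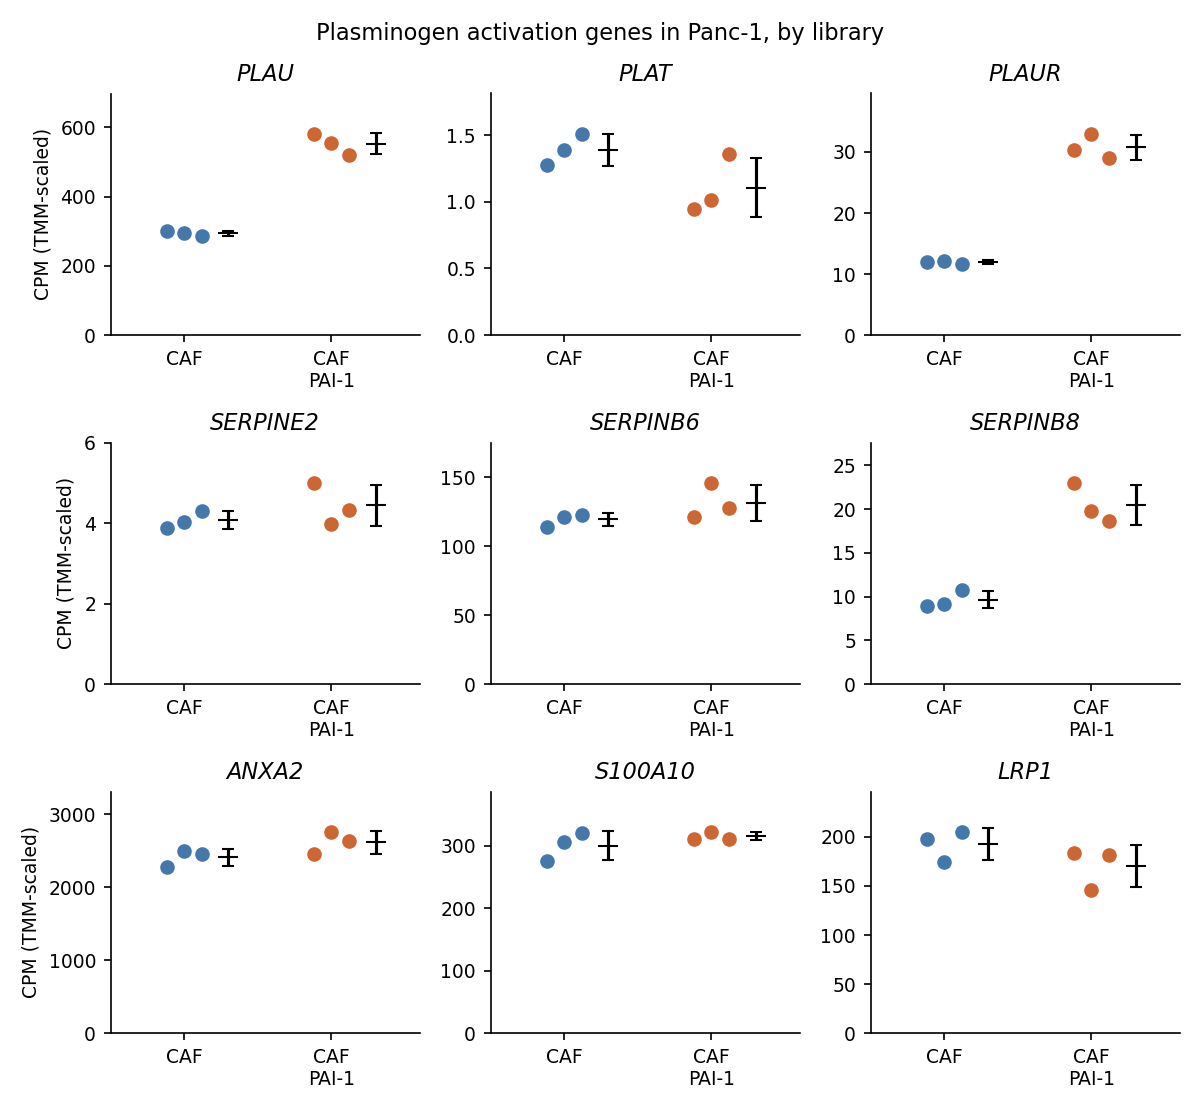
TMM-scaled CPM (vertical axes from 0, 1 scale per gene) of the 9 genes in each library of Panc-1 with CAF (blue) and with CAF overexpressing PAI-1 (orange); black bars are mean ± SD, n = 3. The orange points lie above all blue points for PLAU, PLAUR and SERPINB8, and the groups overlap for the other 6 genes.

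Urokinase was by far the more abundant activator in these libraries, and its gene rose. PLAU (ENSG00000122861, chromosome 10, 73909177 to 73917497, plus strand, GRCh38) stood at 300.3, 295 and 287 CPM in CAF replicates 1, 2 and 3 and at 581, 555 and 520.2 CPM in PAI-1 replicates 1, 2 and 3. The lowest PAI-1 library lay far above the highest CAF library, and the spread within each group was small next to the gap. The means were 294 ± 6.77 and 552 ± 30.7 CPM (SD, n = 3 each), a 1.88-fold rise (log2 fold change 0.91, SE 0.054, 95% interval 0.80 to 1.02, edgeR adjusted p = 3.81e-15). PLAU ranked 328th of 58735 genes by mean CPM, so each library held between 3988 and 8588 of its reads. C10orf55, an annotated gene on the opposite strand at the same place, had 180 counts over all 6 libraries, or 0.475% of those of PLAU. It is not stated whether counting used strand.

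The tissue-type activator was close to the limit of detection. PLAT (ENSG00000104368, chromosome 8, 42175233 to 42207724, minus strand) had 21, 22 and 21 counts in CAF replicates 1 to 3 and 14, 14 and 21 counts in the PAI-1 libraries. In CPM the highest PAI-1 library, at 1.36, lay above the lowest CAF library, at 1.27, so the groups overlapped. The log2 fold change was -0.32 with a 95% interval from -1.04 to 0.40 (edgeR adjusted p = 0.53). A fall to 0.487 of its level and a rise of 1.32-fold both lie within that interval, and a rise of the size seen for PLAU does not. PLAT is also a known product of fibroblasts and endothelial cells.

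PLAUR, the urokinase receptor gene, showed the largest change of the 9. PLAUR (ENSG00000011422, chromosome 19, 43646095 to 43670547, minus strand) stood at 11.96, 12.2 and 11.7 CPM with CAF and at 30.3, 33.0 and 29.03 CPM with PAI-1. The 3 CAF libraries were almost level, and every PAI-1 library lay above them. It rose 2.57-fold, from 11.9 ± 0.286 to 30.8 ± 2.01 CPM (SD, n = 3 each; log2 fold change 1.36, SE 0.10, 95% interval 1.16 to 1.57, edgeR adjusted p = 8.12e-13). Its fold change stood at percentile 99.49 of all genes tested. These values rest on 162 to 197 counts per CAF library and 448 to 454 counts per PAI-1 library.

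Receptor and ligand transcripts did not rise to the same degree. The ratio of PLAUR to PLAU counts within a library was 0.0399, 0.0416 and 0.0407 with CAF and 0.0522, 0.0595 and 0.0559 with PAI-1. All 3 PAI-1 libraries had a higher ratio than any CAF library. The mean log2 ratio went from -4.62 ± 0.030 to -4.16 ± 0.094, a 1.37-fold rise of receptor over ligand transcripts. The exact two-sided permutation test gave p = 0.1, which is the smallest that 3 libraries against 3 allow (0.15 adjusted over the 3 ratios examined), so it could not pass the threshold. A ratio within a library needs no scaling between libraries.

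**Figure D2:**
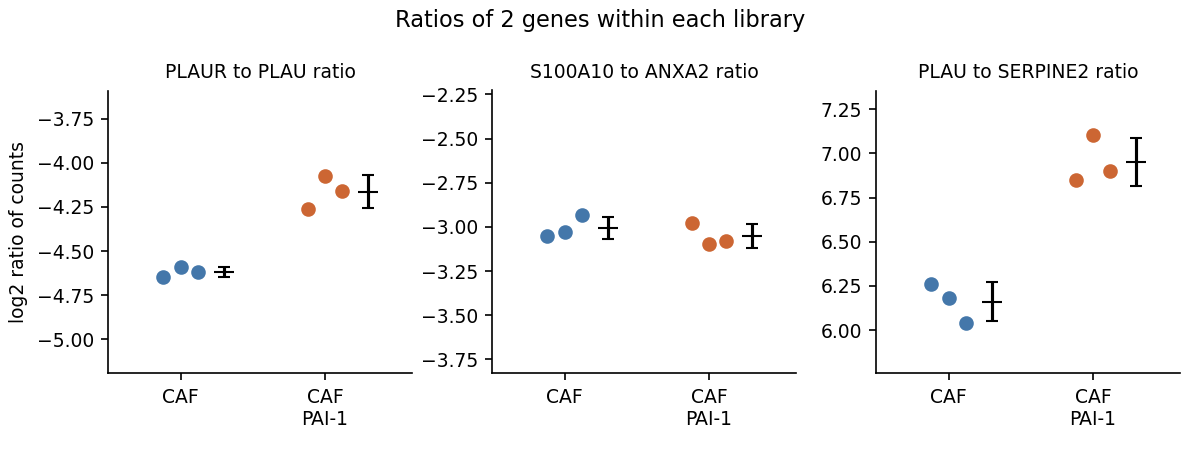
Log2 ratio of the counts of 2 genes within each library (vertical axes, each spanning the same range), with CAF in blue and with CAF overexpressing PAI-1 in orange; black bars are mean ± SD, n = 3. PLAUR to PLAU and PLAU to SERPINE2 are higher in all 3 PAI-1 libraries than in any CAF library, while the groups overlap for S100A10 to ANXA2.

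The inhibitor genes fell into a serpin that rose and serpins that did not pass the test. SERPINB8, which encodes an intracellular serpin able to inhibit the proprotein convertase furin, stood at 8.98, 9.20 and 10.8 CPM with CAF and at 23.0, 19.8 and 18.6 CPM with PAI-1. The groups were well apart, though both spread more than those of PLAUR. It rose 2.13-fold, from 9.66 ± 0.986 to 20.5 ± 2.27 CPM (SD, n = 3 each; log2 fold change 1.09, SE 0.12, 95% interval 0.84 to 1.34, edgeR adjusted p = 8.02e-09). SERPINB8 is ENSG00000166401 (chromosome 18, 63969925 to 64019779, plus strand). HMSD, a gene on the same strand that overlaps its 5′ part, had 25, 27 and 20 counts with CAF and 22, 14 and 16 with PAI-1, so its groups overlapped.

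SERPINB6, which encodes an intracellular inhibitor of cathepsin G and trypsin-like proteases, was the most abundant serpin of the 3. SERPINB6 (ENSG00000124570, chromosome 6, 2948159 to 2972165, minus strand) stood at 114, 121 and 123 CPM with CAF and at 121, 146 and 128 CPM with PAI-1. The high value belongs to PAI-1 replicate 2, and the groups overlapped. The log2 fold change was 0.14 (SE 0.064, 95% interval 0.010 to 0.27, edgeR adjusted p = 0.0932), and 0.06 without that library (adjusted p = 0.52).

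SERPINE2 encodes protease nexin-1, a secreted inhibitor of thrombin and urokinase and the closest relative of PAI-1 among these genes. SERPINE2 (ENSG00000135919, chromosome 2, 223975112 to 224039319, minus strand) was scarce, at 3.88, 4.03 and 4.32 CPM with CAF and 5.01, 3.995 and 4.33 CPM with PAI-1. The groups overlapped, and the log2 fold change was 0.13 with a 95% interval from -0.27 to 0.53 (edgeR adjusted p = 0.657). PLAU counts were 65.9 to 76.7 times those of SERPINE2 with CAF and 115 to 138 times with PAI-1. The log2 ratio differed by 0.79, with every PAI-1 library above every CAF library and an exact permutation p = 0.1, again the smallest possible.

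SERPINB8 was the only clade B serpin gene of its chromosomal cluster with more than 7 counts over all libraries together. It belongs to a cluster of 10 clade B serpin genes on chromosome 18 between 63476761 and 64019779. Of the other 9, SERPINB2, SERPINB3, SERPINB4, SERPINB10, SERPINB11, SERPINB12 and SERPINB13 had no count in any library, SERPINB5 had 1 count in all and SERPINB7 had 7. SERPINB2 encodes PAI-2, the other dedicated inhibitor of urokinase. The 3 clade B genes on chromosome 6, SERPINB1, SERPINB9 and SERPINB6, were all expressed, and none passed the test. SERPINB6 gave 69.3% to 69.9% of all clade B counts in the CAF libraries and 62.8% to 69.1% with PAI-1. The share of SERPINB8 was 5.25% to 6.14% with CAF and 9.38% to 12% with PAI-1, with no overlap.

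**Figure D3:**
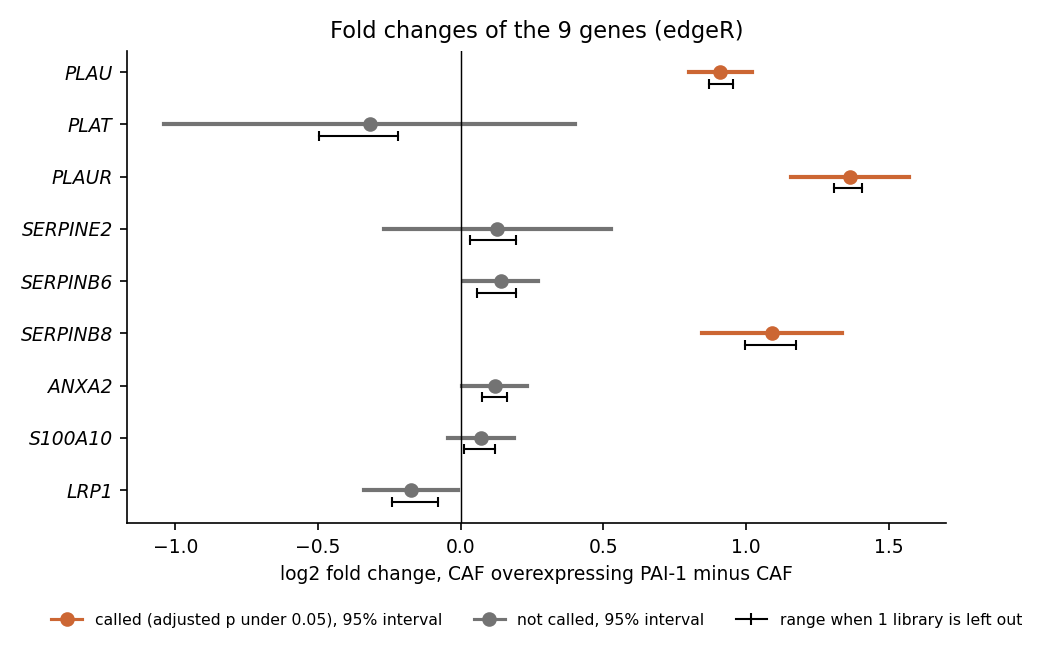
Log2 fold change (horizontal axis) of the 9 genes with its 95% interval from edgeR, orange where the gene was called and grey where it was not; the thin black bars show the range of the estimate when each library is left out in turn. PLAUR, SERPINB8 and PLAU lie at 1.36, 1.09 and 0.91 with intervals far from 0, and the interval of PLAT is the widest.

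The plasminogen-binding pair was abundant and nearly level. ANXA2 and S100A10 encode the chains of a heterotetramer on the cell surface that binds plasminogen and the tissue-type activator, with S100A10 carrying the binding site for plasminogen. ANXA2 (ENSG00000182718, chromosome 15, 60347134 to 60402883, minus strand) ranked 21st of all genes by mean CPM, at 2281, 2496 and 2448 CPM with CAF and 2452, 2759 and 2637 CPM with PAI-1. The lowest PAI-1 library lay inside the CAF range. The log2 fold change was 0.12 (SE 0.056, 95% interval 0.0052 to 0.23, edgeR adjusted p = 0.104), so a rise above 1.18-fold lies outside the interval. Without PAI-1 replicate 2 it was 0.08 (adjusted p = 0.271). ANXA2P2, a processed copy of ANXA2 on chromosome 9, held 1916 to 2387 counts per library, 5.58% of the ANXA2 total, and how reads shared by the copies were assigned is not stated.

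S100A10 (ENSG00000197747, chromosome 1, 151982915 to 151994390, minus strand) stood at 275, 306 and 320.2 CPM with CAF and at 312, 323 and 312 CPM with PAI-1. The PAI-1 values lay almost within the CAF range. Its log2 fold change was 0.07 with a 95% interval from -0.044 to 0.18 (edgeR adjusted p = 0.365). The ratio of S100A10 to ANXA2 counts was 0.121 to 0.131 with CAF and 0.117 to 0.127 with PAI-1. The mean log2 ratios, -3.01 ± 0.062 and -3.05 ± 0.066, differed by less than 1 SD (exact permutation p = 0.5).

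LRP1, the endocytic receptor that clears urokinase complexes, was the one gene of moderate abundance with lower values. LRP1 (ENSG00000123384, chromosome 12, 57128493 to 57213351, plus strand) stood at 198, 174 and 205 CPM with CAF and at 184, 146 and 182 CPM with PAI-1. The groups overlapped through CAF replicate 2, and the lowest value belongs to PAI-1 replicate 2. The log2 fold change was -0.17 (SE 0.078, 95% interval -0.34 to -0.0090) and did not pass (edgeR adjusted p = 0.101, unadjusted p = 0.0399). Without PAI-1 replicate 2 it was -0.08 (adjusted p = 0.309), and without CAF replicate 2 it was -0.24 and passed (adjusted p = 0.0245). STAT6 overlaps the 5′ end of LRP1 on the opposite strand and had 1876 to 2217 counts per library.

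Levels of different genes can be compared per exon length. As CPM per kilobase of annotated exon, the CAF libraries held ANXA2 at 273 ± 12.8, S100A10 at 195 ± 14.9 and PLAU at 99.6 ± 2.29 (SD, n = 3). LRP1 and SERPINB6 followed at 9.24 ± 0.771 and 9.05 ± 0.359, with ranges that overlap, so their order is not settled. PLAUR stood at 2.68 ± 0.064, SERPINB8 at 1.65 ± 0.168, SERPINE2 at 0.459 ± 0.025 and PLAT at 0.21 ± 0.018. With PAI-1, PLAU reached 187 ± 10.4, and its range of 176 to 197 came close to that of S100A10, 202 to 209. PLAUR reached 6.91 ± 0.452 and its range, 6.51 to 7.399, then overlapped that of LRP1, 6.999 to 8.83. The overlap came through PAI-1 replicate 2 alone, which held the highest PLAUR and the lowest LRP1 value. In PAI-1 replicates 1 and 3 PLAUR stood at 6.80 and 6.51 and LRP1 at 8.83 and 8.72. Lengths are unions of all annotated exons, which lowers the values of genes with long or many rare transcripts.

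**Figure D4:**
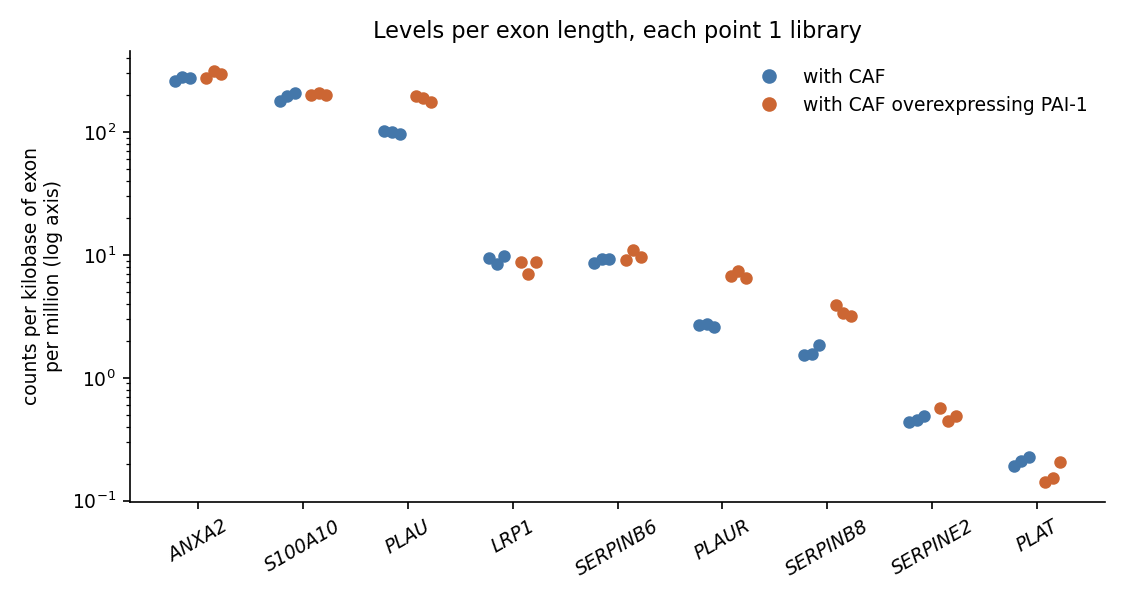
CPM per kilobase of annotated exon (vertical log axis) for the 9 genes, ordered by their mean with CAF; each point is 1 library, blue with CAF and orange with CAF overexpressing PAI-1. PLAU moves from 99.6 to 187, close to S100A10, and PLAUR from 2.68 to 6.91, nearer to LRP1, with overlap only through PAI-1 replicate 2.

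A list of 75 other genes around plasminogen activation, in 7 groups, gives the setting. Of these, 44 were tested, 15 rose and 6 fell (12 and 11 with library size alone). Their median log2 fold change was 0.10. The calls stand beside 17.2% higher and 15% lower over all genes tested. Without PAI-1 replicate 2, 18 rose and 7 fell. The list is described by these counts and no set test was made.

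Partners of the urokinase receptor were higher in most cases. The receptor has no segment inside the cell and is known to act through integrins and receptor kinases beside it. Of 10 tested partners 8 rose and none fell, with a median log2 fold change of 0.27. Over all genes tested 17.2% rose and 15% fell. The list was chosen with earlier results of these data known, so the counts are a description. With library size alone in place of TMM, 6 rose and 1, ITGB5, fell, with a median of 0.21. With RLE scaling in place of TMM 7 rose, without ITGAV, whose edgeR adjusted p with TMM was 0.0432. ITGA3, the integrin chain that pairs with ITGB1 as a laminin receptor, went from 1408 ± 36.6 to 2182 ± 59.9 CPM (SD, n = 3 each; log2 fold change 0.63, edgeR adjusted p = 1.44e-11). ITGB3, the chain of the vitronectin receptor, rose by 0.51, EGFR by 0.36 and ITGB1 by 0.30 on the log2 scale. ITGB5 and ITGAM had -0.07 and 0.42 and did not pass. Vitronectin, the matrix ligand of both PAI-1 and the urokinase receptor, was barely transcribed, since VTN had 18 counts in all 6 libraries.

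The plasminogen gene itself was near the floor. PLG had 51 counts in all, with 13, 13 and 8 counts in the CAF libraries and 10, 4 and 3 with PAI-1 (log2 fold change -0.92, 95% interval -2.003 to 0.16, edgeR adjusted p = 0.193). F12, which encodes coagulation factor XII, had a log2 fold change of 0.25 and did not pass. Among 4 other plasminogen-binding proteins KRT8 rose by 0.17 (not called with library size alone) and HMGB1 had -0.18 and fell, while ENO1 and PLGRKT, at 0.08 and -0.31, did not pass.

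Of 23 other serpins, 16 were under 1 CPM in every library and 7 were tested. SERPINA1, encoding alpha-1-antitrypsin, went from 1.603 ± 0.708 to 3.13 ± 0.16 CPM, with 13, 33 and 27 counts with CAF and 46, 41 and 51 with PAI-1 (log2 fold change 0.98, SE 0.29, edgeR adjusted p = 0.00974). SERPINH1, a collagen chaperone that does not inhibit proteases, rose by 0.33. SERPINB1 and SERPINF1 had 0.15 and -0.31 and did not pass.

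Other brakes on proteolysis went both ways. THBD, which encodes thrombomodulin, averaged 2.47 ± 1.13 CPM with CAF and 8.01 ± 1.38 CPM with PAI-1 (a log2 fold change of 1.70, edgeR adjusted p = 1.17e-06). TFPI, the inhibitor of the tissue factor pathway, and SPINT1, an inhibitor of the activator of hepatocyte growth factor, fell by 0.30 and 0.41 on the log2 scale. SPINT2, at 0.05, did not pass.

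Relatives of LRP1 and ANXA2 were mixed. Of 9 tested endocytic receptors and their helpers, VLDLR, which also takes up PAI-1 complexes, rose by 0.47, and SORT1 fell by 0.52. IGF2R, at 0.13, and SORL1, at -0.03, did not pass, though without PAI-1 replicate 2 IGF2R and SNX17 rose as well. Of 8 tested annexins other than ANXA2, ANXA5 and ANXA1 rose by 0.27 and 0.26, ANXA9 fell by 0.87 (with library size alone 4 fell), and ANXA11 and ANXA7, at -0.10 and 0.13, did not pass. Without PAI-1 replicate 2 ANXA7 rose and ANXA6 fell as well.

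**Figure D5:**
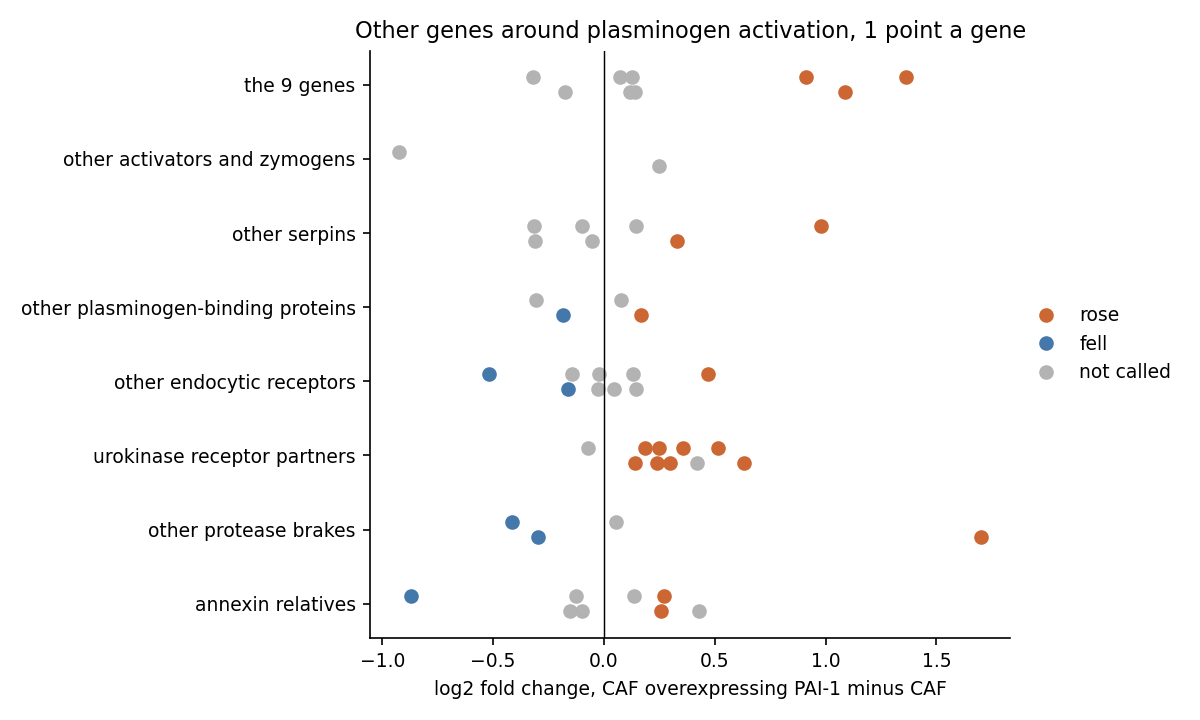
Log2 fold change (horizontal axis, CAF overexpressing PAI-1 minus CAF) of each tested gene, 1 point a gene, for the 9 genes and 7 groups of related genes; orange points rose, blue points fell and grey points were not called. Among urokinase receptor partners 8 of 10 points are orange, beside 17.2% called higher over all genes tested. Every group, the partners included, holds points on both sides of 0.

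The genes whose log2 CPM over the 6 libraries was most like that of a member were taken from 10950 tested genes that averaged 5 CPM or more. The libraries form 2 groups, so a high r for a gene that rose mainly shows the same step between groups, and these values are a description over points that share libraries and depth. XPOT, ITGA3 and SLC1A5 were nearest to PLAU (Pearson r = 0.9995, 0.9992 and 0.9989), and ITGA3 also stands among the receptor partners above. SQSTM1, CCDC85B and BHLHE40 were nearest to PLAUR (r = 0.9995, 0.9994 and 0.9994), and TCEA1, PSAT1 and IL27RA to SERPINB8 (r = 0.998, 0.9979 and 0.9978). The nearest gene was SLC25A3 for SERPINB6 (r = 0.9948), PLS3 for S100A10 (r = 0.9977) and ZNF250 for LRP1 (r = 0.9892). For the scarce genes SERPINE2 and PLAT the highest r were 0.9865, with ATF6, and 0.9829, with SERINC5.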

How the data were processed

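The authors deposited whole-number counts per gene for 6 libraries; no other sample column was left aside. Per the submitters' processing notes BWA, Bowtie2, RSEM and hg19 were used, with no roles or versions; how whole counts were obtained is not stated there. All 58735 identifiers are those of GENCODE release 29 on GRCh38, which supplied positions and exon lengths; 58708 names were equal. The extraction text in the labels names another cell line, Cal27, and treatments not used here. The labels call replicates biological without saying whether cultures were separate, so p-values reflect only how far these libraries differ. Within groups, chi-square per degree of freedom over genes with at least 20 reads was 2.585 to 9.513, so no library repeats another.

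The test was that of edgeR 4.0.16 under R 4.3.3 (filterByExpr with minimum count 10 and total 15, TMM scaling, robust glmQLFit, glmQLFTest, no covariates). SE is the unshrunken log2 fold change over the root of F. CPM are TMM-scaled; markers under 1 CPM use library totals. Ratios added 0.5 counts. Simulated data for this comparison (14741 genes) returned 81 of 97 true 2-fold changes, 66 of 97 true 1.5-fold changes, and 4 false calls among 151. A far smaller share of genes changed there than the 32.2% called here, so these rates need not hold for the real test. Alternatives: DESeq2 1.42.0, limma-voom (limma 3.58.1), RLE scaling or none, no low-count filter or a mean of 1 CPM, a replicate block, and leaving out each library. Members and lists were chosen with earlier results of these data known. All members were named; of each group, up to 4 called genes with the largest change and up to 2 most abundant uncalled ones, and the 3 nearest patterns per member (for 5 members the nearest alone is printed). The levels of the PAI-1 transcript and some other results of this rule are not reported here; that transcript was left out of the nearest patterns.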

Additional observations from a re-analysis of the deposited data

How the results depend on the processing

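PLAU, PLAUR and SERPINB8 were higher and passed the test in all 13 alternatives, at log2 fold changes of 0.84 to 0.95, 1.30 to 1.41 and 0.99 to 1.17. PLAT, SERPINE2 and S100A10 passed in none of the 13. No gene of the 9 changed direction under any of them. With 3 libraries a group, small changes depended on single libraries. Leaving out each library in turn gave 3 to 5 of the 9 genes higher and 0 to 1 lower; the 5 came without PAI-1 replicate 1, when ANXA2 (0.16, edgeR adjusted p = 0.0311) and SERPINB6 (0.20, adjusted p = 0.0229) also passed. LRP1 passed as lower in 5 alternatives. It alone gave the count of 1 lower with library size alone (-0.24, adjusted p = 0.0178), without a low-count filter (-0.16, adjusted p = 0.0341), and when CAF replicate 2 or PAI-1 replicate 1 was dropped. Its adjusted p ranged from 0.00602 to 0.309. Library size alone also raised the other genes called lower from 6 to 11, and gave 1839 genes higher and 3182 lower over all, against 2571 and 2239; it moved the median of all genes to -0.07. As for the replicate block, same-numbered libraries did not deviate together (r = 0.0023, 0.012 and 0.0063). The labels do not say whether they were paired, and these r cannot settle it with 3 libraries a group. With the replicate block 4 of the 9 genes were higher, with ANXA2 added (adjusted p = 0.0264), and 1 lower, LRP1 (adjusted p = 0.00602); 2708 genes were higher and 2361 lower over all. The depth limits PLAT, PLG and SERPINE2, whose intervals are wide.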
